A study of Mus musculus with 3 samples.

Results

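The 10 genes described here act on AMP, adenosine and inosine: the ectonucleotidase Entpd1, the adenosine receptor Adora2a, the nucleoside transporters Slc29a1 and Slc28a2, the intracellular nucleotidases Nt5c2 and Nt5c, the AMP deaminases Ampd2 and Ampd3, adenosine deaminase (Ada) and purine nucleoside phosphorylase (Pnp). They were found by symbol among the 24982 gene symbols of the deposited tables, and all 10 were present. They were selected on what their products do and with their read counts in these same libraries known, so the values below that set CD73-deficient against wild-type cells are a description, and no test of a single member is given. RNA was sequenced from mouse LKS cells (Lin-, Kit+, Sca1+), the part of the bone marrow where blood stem cells and their first progeny are found. The CD73-/- recipients gave 1 library (the KO library) and wild-type (WT) recipients gave 2. The labels give neither the age nor the strain of the mice, nor any treatment, and do not state whether donor or recipient cells were sorted. Separate animals are not named for the WT libraries either. All 3 libraries were sorted from fresh bone marrow by the same gate.

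Extracellular ATP and ADP are cut to AMP by CD39, the product of Entpd1, and AMP is cut to adenosine by CD73, the product of Nt5e. Adenosine then acts on cell-surface receptors, of which the Adora2a product raises cyclic AMP, or is carried into the cell, where it is deaminated to inosine by Ada or returned to AMP by adenosine kinase. Inside the cell, nucleotidases and AMP deaminases compete for AMP, and Pnp splits inosine into hypoxanthine and ribose phosphate. In blood and marrow this pathway is best known for restraining immune cells, and the loss of ADA in people causes severe combined immunodeficiency.

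The libraries were shallow, with 264704 gene-level counts in KO, against 361638 in WT replicate 1 and 324954 in WT replicate 2. A total of 3 counts, the limit that a count of 0 allows, equals 11.3 CPM (counts per 1000000 counts of the library) in KO, against 8.30 and 9.23 CPM in the WT libraries. The WT pair itself was 2-fold or more apart in 55.1% of the 7984 genes tested. Of 9 genes that mark LKS cells, 8 had counts in KO, against 9 in each WT library. Slamf1, a stem cell surface marker, was the exception, with 0 counts in KO, against 3 and 9 in the WT libraries. The summed level of the 9 was 1609 CPM in KO, against 2010 and 2431 CPM in the WT libraries. The lineage genes Ly6g, Cd3e and Ms4a1 had 0 counts in every library, but other markers of mature cells had counts, such as S100a9 of neutrophils with 36 in KO, against 92 and 164. Nt5e, the targeted gene, had 0 counts in KO and in both WT libraries, so it could not check the label.

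Of the 10 members, 8 had enough counts to be tested, and Ampd3 and Entpd1 did not. None of the 8 was called higher or lower over all genes (edgeR quasi-likelihood test, adjusted p of 0.05), where 0.100% of the 7984 genes tested were called higher and 0% lower. By size alone, Nt5c2 and Ada were at least 2-fold higher in KO than in each WT library, on log2(CPM + 1), as were 13% of all genes tested (1040 of 7984). Of the 8 members tested 0 were at least 2-fold lower than each WT library, against 23.4% of all genes tested. KO stood above both WT libraries for 5 of the 8 (31.1% of all genes tested), below both for Adora2a (38.2%) and between them for Nt5c and Slc28a2. The median log2 difference between KO and the WT pair was 0.68 over these 8 and -0.10 over all genes tested. These shares rest on members chosen with the counts known, and nothing is read from them. Without WT replicate 1, 4 of the 8 met the size rule on the higher side, Nt5c and Pnp being added, and Adora2a met it on the lower side, where 27.0% of all genes tested met it higher and 34.6% lower. In bulk RNA, fewer cells of a type and less RNA per cell cannot be told apart.

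**Figure D1:**
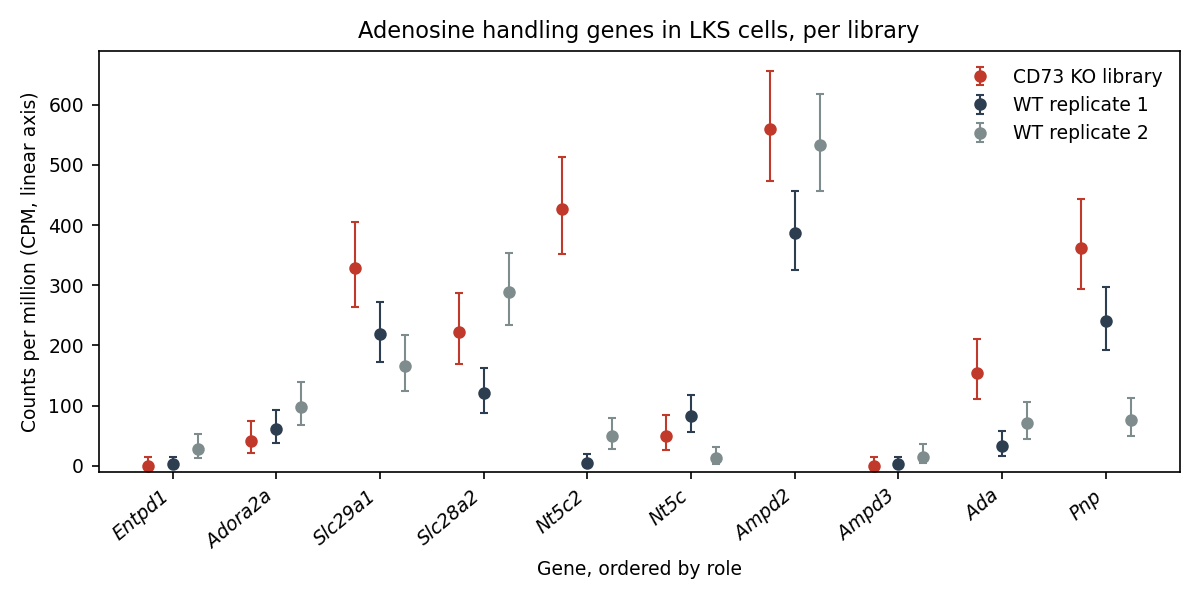
CPM of the 10 genes in the KO library (left point of each gene) and the 2 WT libraries, with 95% exact Poisson intervals that cover counting error only. Nt5c2 stands at 427 CPM in KO, against 5.53 and 49.2 CPM in the WT libraries, while Ampd2 is at 559 CPM in KO, against 387 and 532 CPM.

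The step that makes adenosine outside the cell was barely represented. Entpd1 (chr19:40612366-40741602, plus strand, GRCm38, which is mm10), whose product CD39 starts the breakdown of extracellular ATP, had 0 counts in KO, against 1 count in WT replicate 1 and 9 in WT replicate 2. Counts were thus confined to the WT libraries and nearly all in replicate 2, at 27.7 CPM. The WT mean of 15.2 ± 17.6 CPM (SD, n = 2) was 1.34 times the KO floor of 3 counts. That value leaves out the counting error of WT, so it is no minimum. The counting interval of the ratio was 0 to 53.3 for KO over WT replicate 1 and 0 to 0.62 for KO over WT replicate 2. WT replicate 1 itself lay under the floor, so the difference rests on replicate 2. Its 2 transcript rows repeated the same count in every library. Of the 9 ectonucleotidase genes listed, 7 had 0 counts in all 3 libraries: Nt5e, Entpd2, Entpd3, Entpd8, Enpp1, Enpp3 and Cd38. Alpl, tissue-nonspecific alkaline phosphatase, had 1 count in WT replicate 2 only.

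Adora2a (chr10:75316877-75334792, plus strand) was the only one of the 4 adenosine receptor genes with any count. Its product couples to the stimulatory G protein and raises cyclic AMP. It had 11 counts in KO, against 22 in WT replicate 1 and 32 in WT replicate 2. In CPM this was 41.6 in KO, against 60.8 and 98.5 in the WT libraries. KO was the lowest library, at 0.52 times the WT mean of 79.7 ± 26.6 CPM (SD, n = 2). The counting intervals overlapped between KO (20.7 to 74.4 CPM), WT replicate 1 (38.1 to 92.1 CPM) and WT replicate 2 (67.4 to 139 CPM). As a ratio, KO was 0.68 times WT replicate 1 (counting interval 0.30 to 1.47) and 0.42 times WT replicate 2 (0.19 to 0.86). These intervals leave out the spread between libraries, so no difference is read from them. The other receptor genes, Adora1, Adora2b and Adora3, had 0 counts in every library, which at this depth allows up to the 3-count floor given above.

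Adenosine crosses the membrane by equilibrative carriers, such as the Slc29a1 product ENT1, or by sodium-driven concentrative carriers, such as the Slc28a2 product CNT2. Slc29a1 (chr17:45585200-45599618, minus strand) had 87 counts in KO, against 79 in WT replicate 1 and 54 in WT replicate 2. In CPM it stood at 329 in KO, against 218 and 166, so KO was above both WT libraries. The KO level was 1.71 times the WT mean of 192 ± 37.0 CPM (SD, n = 2). Slc28a2 (chr2:122426357-122461152, plus strand) had 59 counts in KO, against 44 and 94 in the WT libraries. At 223 CPM KO lay between WT replicate 1 (122 CPM) and WT replicate 2 (289 CPM), which were 2.38-fold apart. Of the other 5 transporter genes listed, Slc29a3, the lysosomal and mitochondrial carrier ENT3 (named after its values were seen), was the only one with counts. It had 155 CPM in KO, against 149 and 157 CPM in the WT libraries.

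Slc29a1 was the only member whose transcript rows carried different counts within a library. In KO, 2 of its 6 rows, NM_001199113 and NM_001357771, had 87 counts and the other 4 had 81. In both WT libraries all 6 rows had the same count. The 6 extra counts were 6.90% of the KO total (95% exact Clopper-Pearson interval 2.57 to 14.4%). By the same kind of interval, the 0 extra counts in WT allow up to 4.56% in replicate 1 and 6.60% in replicate 2. Both limits lie inside the KO interval. Over the 133 counts of the WT pair the 3-count limit is 2.26%. It is of another kind than the KO interval, so no separation is read from it. These limits cover counting error only, and with 1 KO library the 6 counts have no replicate check. The deposited FPKM values (counts scaled to transcript length and library size) moved much further than the counts. They put all of the KO signal on those 2 rows, 63.9% on NM_001199113 and 36.1% on NM_001357771. They put 85.1% of the WT signal on NM_001199114 in each replicate, the same share to at least 3 digits although no count separated the rows there. The row favoured in WT begins near position 45595864 and NM_001199113 near 45593649, farther along the gene. In the windows from 250 bases before to 50 after each of these starts, TGACG, the core of the cyclic AMP response element, occurred 0 times at the upstream start and 1 time at the downstream one, and GGGCGG, the GC box, occurred 1 time at each (either strand). The downstream start is shown because the FPKM values put the larger part of the KO signal, 63.9%, on NM_001199113, which begins near it. The bases before it, chr17:45593650-45593899, are from RefSeq (GRCm38.p6), 5′ to 3′ on the minus strand, without annotated UTR, and capitals mark both motifs.
Slc29a1 downstream start: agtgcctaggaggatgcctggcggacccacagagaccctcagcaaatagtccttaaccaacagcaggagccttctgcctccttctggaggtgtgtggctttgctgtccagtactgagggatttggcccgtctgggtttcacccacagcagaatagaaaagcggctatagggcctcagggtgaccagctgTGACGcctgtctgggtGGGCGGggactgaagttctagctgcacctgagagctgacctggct
The match of letters does not show that either motif is used.

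**Figure D2:**
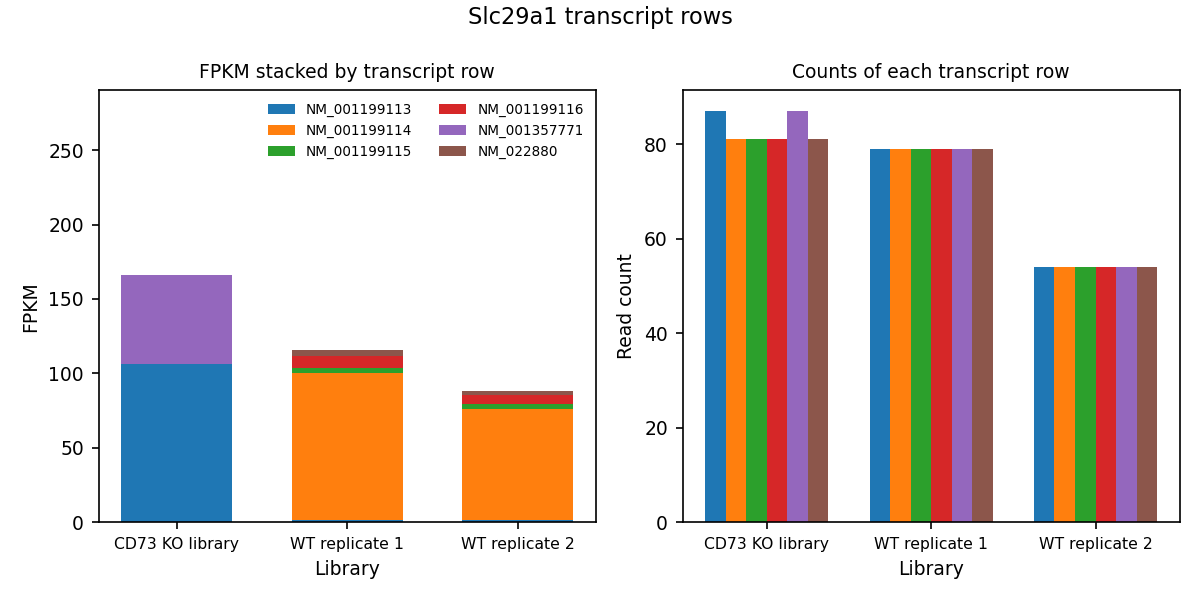
Slc29a1 transcript rows in the KO library and both WT libraries, as stacked FPKM (left) and as read counts of each row (right). The FPKM of KO lies on NM_001199113 and NM_001357771 and that of WT mostly on NM_001199114, while the counts of the rows differ only in KO, at 87 against 81.

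Among the nucleotidases inside the cell, Nt5c2 stood farthest from WT. Its product cN-II prefers IMP and GMP, also acts on AMP, and sits at the point where purine nucleotides leave the salvage cycle. Nt5c2 (chr19:46885390-47015174, minus strand) had 113 counts in KO, against 2 in WT replicate 1 and 16 in WT replicate 2. In CPM this was 427 in KO (interval 352 to 513), against 5.53 (0.670 to 20.0) and 49.2 (28.1 to 80.0) in the WT libraries. The KO interval overlapped neither WT interval, and the WT intervals did not overlap each other. KO was 77.2 times WT replicate 1 (counting interval 20.9 to 645) and 8.67 times WT replicate 2 (5.11 to 15.7), while the WT libraries were 8.90-fold apart. The log2 difference from the WT pair was 4.56 on log2(CPM + 1), with an SD of 2.08 between the WT libraries. Of 2831 genes that reached 50 counts in at least 1 library, 13 had a larger positive difference. Nt5c2 reached 50 counts in KO only and was chosen with its counts known, so nothing is read from this rank.

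All 4 Nt5c2 rows repeated the same count in each library, so no read separated them, although the deposited FPKM placed the whole signal on NM_001164363. That row begins inside the coding exon of Ina, a neuronal intermediate filament gene on the opposite strand, which had 0 counts in every library. The start at position 46962308, used by NM_029810, is shown instead. A further RefSeq start lies shortly before it, at 46962351, and the 52 bases before that one, chr19:46962352-46962403, carry no annotated UTR. Other RefSeq starts of Nt5c2 lie upstream of these bases, the nearest at 46962563, so a transcript from there may cover them. The 52 bases come from RefSeq (GRCm38.p6) and read 5′ to 3′ on the minus strand, with the GC box (GGGCGG) in capitals.
Nt5c2: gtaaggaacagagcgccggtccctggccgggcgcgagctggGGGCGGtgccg
They are 76.9% G and C and hold 1 GC box and no TGACG.

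The genes whose pattern was most like that of Nt5c2 were found by the Euclidean distance of log2(CPM + 1) over the 3 libraries, over the same 2831 genes. The nearest was Alkbh1, a nucleic acid demethylase, with 86 counts in KO, against 2 and 12 in the WT libraries (distance 0.56). Cops9 (97 counts in KO, against 2 and 27), Nf2 (65, against 2 and 13), S1pr4 (69, against 3 and 18) and Gsr (74, against 3 and 28) followed, at distances of 0.77 to 1.12. With 3 libraries such likeness is a description only.

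Nt5c, the cytosolic deoxyribonucleotidase, did not share this pattern. Nt5c (chr11:115490420-115492070, minus strand) had 13 counts in KO, against 30 in WT replicate 1 and 4 in WT replicate 2. KO, at 49.1 CPM, lay between the WT libraries (83.0 and 12.3 CPM), which were 6.74-fold apart. Armc7 overlaps Nt5c by 48 exonic bases on the opposite strand and had 6 counts in KO, against 2 and 3 in WT. Without a statement on strand, reads in that overlap could belong to either gene. Of the other 5 nucleotidase genes listed, Nt5c1a and Nt5c1b had 0 counts throughout. Nt5c3 (24 counts in KO, against 5 and 33 in WT), Nt5c3b (8, against 30 and 0) and Nt5m (0, against 2 and 1), all named after their values were seen, stood beside them, with KO between the WT libraries in CPM for Nt5c3 and Nt5c3b.

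AMP is also removed by deamination to IMP. Ampd2 (chr3:108074059-108086687, minus strand), the broadly expressed AMP deaminase, had 148 counts in KO, against 140 in WT replicate 1 and 173 in WT replicate 2. The KO level of 559 CPM was 1.05 times that of WT replicate 2 (counting interval 0.84 to 1.32) and 1.44 times that of WT replicate 1 (1.14 to 1.83). Of all members, Ampd2 and Slc29a1 had the closest WT libraries, 1.38-fold and 1.31-fold apart. Ampd3 (chr7:110767790-110812409, plus strand), known as the erythrocyte AMP deaminase, had 0 counts in KO, against 1 and 5 in the WT libraries. Its WT mean of 9.08 ± 8.92 CPM (SD, n = 2) lay under the KO floor, so no fold is given. Rnf141 overlaps it by 195 exonic bases on the opposite strand and had 0 counts in KO, against 0 and 16 in WT.

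Ada (chr2:163726571-163750239, minus strand), which turns adenosine and deoxyadenosine into inosine and deoxyinosine, was the other member that stood at least 2-fold above each WT library. It had 41 counts in KO, against 12 in WT replicate 1 and 23 in WT replicate 2. In CPM it was at 155 in KO (interval 111 to 210), against 33.2 (17.1 to 58.0) and 70.8 (44.9 to 106) in the WT libraries. KO was 2.98 times the WT mean of 52.0 ± 26.6 CPM (SD, n = 2), and the WT libraries were 2.13-fold apart. Both Ada rows repeated the same count, and both match the same annotated start, so 1 window covers both. The 250 bases before that start, chr2:163750240-163750489 (RefSeq, GRCm38.p6, minus strand, 5′ to 3′), are given with GC boxes in capitals.
Ada: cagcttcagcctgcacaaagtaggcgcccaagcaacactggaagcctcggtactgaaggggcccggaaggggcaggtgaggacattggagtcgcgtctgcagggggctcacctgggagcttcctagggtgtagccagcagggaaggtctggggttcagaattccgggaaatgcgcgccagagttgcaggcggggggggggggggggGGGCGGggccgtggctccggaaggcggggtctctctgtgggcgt
They are 67.2% G and C and hold 1 GC box and no TGACG. Adk, adenosine kinase, which competes with Ada for adenosine, had 0 counts in KO, against 2 and 1 in WT (named after its values were seen).

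Pnp (chr14:50944303-50953412, plus strand), the next enzyme after Ada, had 96 counts in KO, against 87 in WT replicate 1 and 25 in WT replicate 2. In CPM this was 363 in KO, against 241 and 76.9, so KO was the highest library, but the WT libraries were 3.13-fold apart. KO was 1.51 times WT replicate 1 (counting interval 1.12 to 2.04) and 4.71 times WT replicate 2 (3.01 to 7.64). Pnp2, the neighbouring paralog (named after its values were seen), had 34 counts in KO, against 14 and 4 in WT. Reads may be split between these near-identical genes, so the values of each are uncertain. Both had the order KO, WT replicate 1, WT replicate 2 from high to low.

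**Figure D3:**
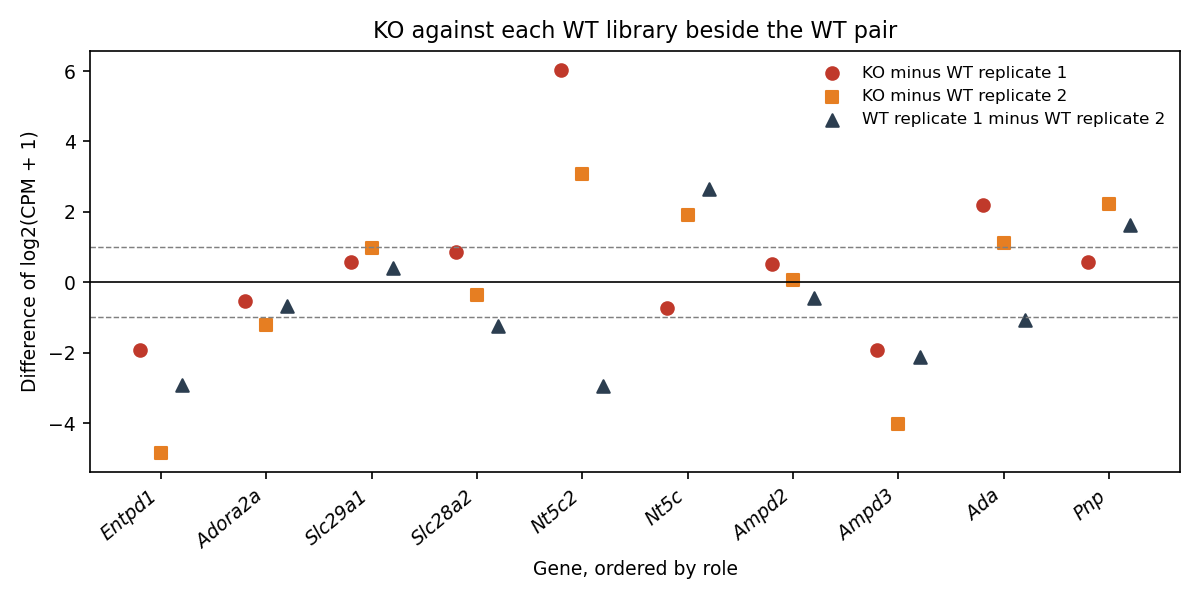
Differences of log2(CPM + 1) for KO minus each WT library (circles and squares) and for WT replicate 1 minus WT replicate 2 (triangles), with dashed lines at 2-fold. Both KO differences lie above 2-fold for Nt5c2 and Ada, and the WT pair is itself more than 2-fold apart for these genes, for Nt5c, Pnp and Slc28a2, and for Entpd1 and Ampd3 at low counts.

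Levels of different genes were set in order per length, as FPKM summed over the rows of a gene. In KO the order from high to low was Ampd2 (175 FPKM), Slc29a1 (166), Pnp (125), Nt5c2 (117), Ada (92.3), Nt5c (89.7), Slc28a2 (81.2) and Adora2a (18.0), with Ampd3 and Entpd1 listed at 0. In WT replicate 1 Nt5c came first (150 FPKM), followed by Ampd2 (120), Slc29a1 (115), Pnp (82.2), Slc28a2 (44.0), Adora2a (26.2), Ada (19.6) and Nt5c2 (1.51). In WT replicate 2 the order was Ampd2 (166 FPKM), Slc28a2 (105), Slc29a1 (88.0), Adora2a (42.5), Ada (41.9), Pnp (26.4), Nt5c (22.3) and Nt5c2 (13.4). Ampd2 and Slc29a1 were thus among the top 3 in every library, and Ampd3 and Entpd1 were the lowest pair in every library. Nt5c2 had rank 8 of 10 in both WT libraries and rank 4 in KO. The middle of the order did not hold within WT: Nt5c had rank 1 in WT replicate 1 and rank 7 in WT replicate 2, and Pnp, Slc28a2, Adora2a and Ada changed places, so neighbours there do not differ beyond the spread of the WT pair.

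Markers of other cells also moved between the libraries. The summed level of 12 erythroid markers was 918 CPM in KO, against 708 and 419 CPM in the WT libraries. Klf1 and 3 globin genes (Hba-a1, Hba-a2 and Hbb-bs) were at 0 throughout. The globin gene Hbb-bt made up 431 CPM of the sum in KO, against 418 and 129 CPM in WT. Epor, the erythropoietin receptor, had 25 counts in KO, against 3 and 0, and Car1 had 20, against 0 and 0. Car2 alone of the 12 lay below both WT libraries, at 227 CPM in KO, against 254 and 289 CPM. Of the 12, 7 had counts in KO, against 6 and 2 in WT. The summed level of 10 mature neutrophil markers was 378 CPM in KO, against 827 and 1148 CPM. Ly6g was at 0 throughout, and Lcn2 had 1 count in KO, against 27 and 67. S100a9, Ltf, Ngp and Mmp9 were also below both WT libraries in KO. KO lay between the WT libraries for S100a8 (144 CPM, against 257 and 138), Camp (41.6, against 52.5 and 15.4) and Retnlg (11.3, against 8.30 and 27.7). The summed level of 9 monocyte and macrophage markers was 457 CPM in KO, against 191 and 646 CPM. Of 9 T and NK markers measured, 6 were at 0 in every library, and their summed level was 0 CPM in KO, against 116 and 6.15 CPM, nearly all of it from Lck in WT replicate 1 (40 counts). The sums for 8 B lineage markers (7.56 CPM in KO, against 16.6 and 64.6 CPM; 4 of the 8 at 0 throughout) and 7 dendritic markers (102 CPM in KO, against 99.5 and 52.3 CPM; 4 of the 7 at 0 throughout) were small. The dendritic sum came from Clec9a in KO (27 counts, against 0 and 0) and mostly from Clec10a in WT (0 counts in KO, against 32 and 17). That of 9 stroma and endothelium markers was 234 CPM in KO, against 199 and 366 CPM, with 6 at 0 throughout, Cdh5, Kdr and Lepr among them. It came from Pecam1 (26 counts in KO, against 52 and 62), Vwf (28, against 20 and 57) and, in KO only, Cxcl12 (8 counts). The part of these cells in the values of Ada, Pnp, Nt5c2 and Entpd1 was not tested.

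The promoter windows of the members, from 250 bases before to 50 after each RefSeq start, were searched on both strands. Windows were found for 9 of the 10 members, 26 windows in all, and for all but Adora2a. TGACG occurred in 4 of the 26, in windows of Entpd1, Nt5c2 and Slc29a1, and in 20.8% of the 32817 windows of all genes. The full element TGACGTCA, which contains TGACG, occurred in 0 of the 26 and in 1.79% of all windows. GGGCGG occurred in 14 of the 26, in windows of Ada, Ampd2, Nt5c, Nt5c2, Pnp and Slc29a1, and in 35.6% of all windows. Several windows of Nt5c2, Slc29a1 and Ampd2 overlap or share a gene, so they are not independent, and a match is a match of letters only.

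The wider purine pathway, 73 genes in 9 lists that include the members, held 38 genes with enough counts to test. Of these 0 were called higher and 0 lower over all genes (edgeR, adjusted p of 0.05), while 2 were higher and 1 lower at an unadjusted p under 0.05, as were 3.53% and 6.51% of all genes tested. DESeq2 also called 0. By size, 5 were at least 2-fold higher and 8 at least 2-fold lower in KO than in each WT library, against the 13% and 23.4% of all genes tested. Besides the members, the genes described by the naming rule in salvage and nucleotide balance were Aprt and Ak3. Aprt, which returns adenine to AMP, had 0 counts in KO, against 5 in WT replicate 1 and 61 in WT replicate 2, so nearly all of its WT signal came from replicate 2. Ak3, the mitochondrial matrix kinase that turns GTP and AMP into GDP and ADP, had 13 counts in KO, against 104 and 57, and KO was the lowest library.

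**Figure D4:**
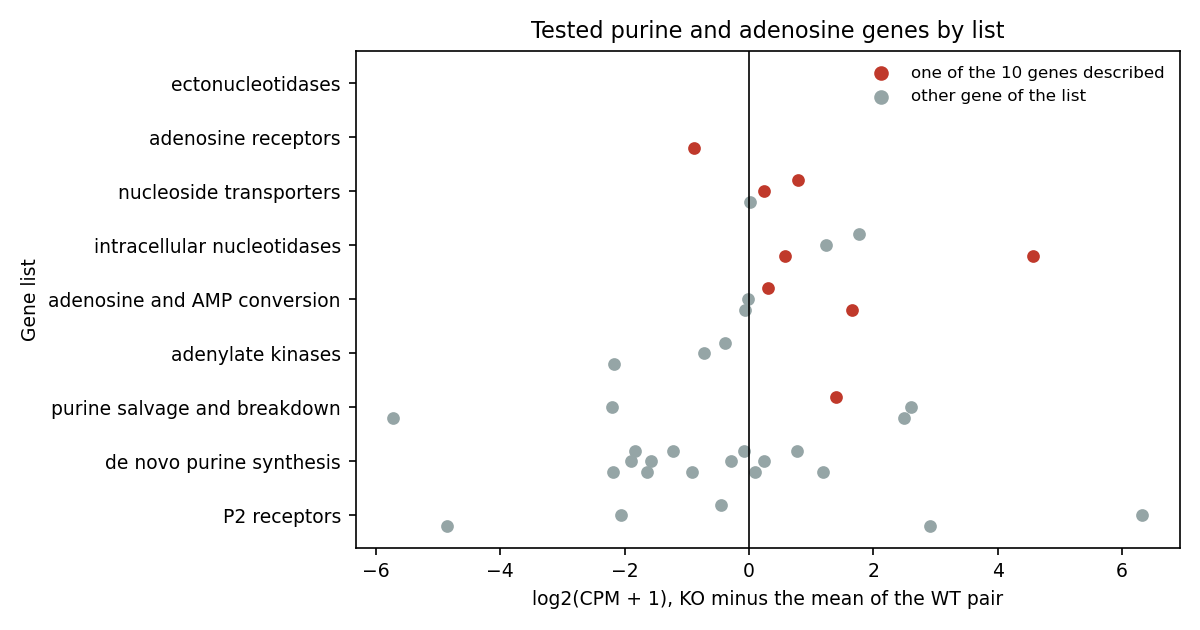
Difference of log2(CPM + 1) between KO and the mean of the WT pair for the 38 tested genes of the purine lists, with the members in red and the vertical offset serving only to separate points. Nt5c2 is the rightmost member at 4.56, and no ectonucleotidase gene had enough counts to appear.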

How the data were processed

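Per the labels' protocols, RNA came from sorted LKS cells (RNeasy micro kit) and was made into libraries with NEB reagents. The authors deposited whole-number counts and, in the next column, FPKM values for each RefSeq transcript row. STAR and mm10 are named in the submitters' processing notes. Counter, FPKM tool and strand setting: not given in the sources used here. Groups came from the sample titles and the design text. Each table had 42574 rows for 24982 symbols, and 0 rows without a symbol. Rows of a gene repeat shared reads, so the gene count was the highest row, and CPM used the total of gene counts. The spread behind any p-value is that of these samples alone and may be technical.

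The test across genes was that of edgeR 4.0.16 under R 4.3.3 (filterByExpr, TMM, quasi-likelihood F-test, Benjamini-Hochberg, threshold 0.05). With 1 residual degree of freedom, the KO library takes its spread from the WT pair. DESeq2 1.42.0 was an alternative. The size rule asked for at least 2-fold from each WT library on log2(CPM + 1), without a test. Intervals are 95% and exact, and they and the floors cover counting error only, because no source mentions molecular identifiers. The members and lists were chosen with earlier results of these data known. Pathway genes were named if past the threshold, if they met the size rule with at least 50 counts in some library, or if the most abundant of their list by mean CPM. Some genes that this rule or the marker lists hold are not reported here. Positions and promoter sequences are from RefSeq and UTRs and overlaps from GENCODE, both on GRCm38, which is mm10.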

Additional observations from a re-analysis of the deposited data

How the results depend on the processing

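No paired analysis was possible because the label of the KO library carries no replicate number. Leaving out a WT library leaves no residual degrees of freedom, so the edgeR counts have no value for it. In place of the 8 genes called over all genes with edgeR, DESeq2 called 0 (165 higher and 456 lower at an unadjusted p under 0.05), edgeR with RLE size factors called 6, edgeR without the filter on low counts called 4 and edgeR on mean counts over rows called 1. The 0 pathway genes called stayed at 0 in all 4 of these alternatives. The number of members at least 2-fold higher in KO, 2 of 10, ranged from 2 to 4 when a WT library was left out. The number past the size rule on the lower side, 2 of 10, ranged from 0 to 3 over all alternatives, and from 2 to 3 when a WT library was left out. The 2 of the main setting were Ampd3 and Entpd1, both at 0 in KO and too low to test. There the pseudocount sets the difference and counts show no 2-fold fall. The rule was met lower by 21.7% of the 11402 genes with any count. The number of members on the lower side was 0 with a pseudocount of 4 CPM and 0 with the FPKM of the row with the highest count. It was also 0 with FPKM summed over rows, a setting chosen after seeing the data. Of all genes tested, 21.6%, 21.9% and 22.0% met the rule lower in these settings. The log2 differences kept their sign in 8 of 10 members over all 8 alternatives. The exceptions were Nt5c (-0.74 without WT replicate 2) and Slc28a2 (-0.37 without WT replicate 1). That of Nt5c2 ranged from 3.09 to 6.03 and that of Ada from 1.12 to 2.19. Depth limits Entpd1, Ampd3 and the genes at 0.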

Other observations

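Genes of de novo purine synthesis, the route that builds IMP from ribose phosphate, lay mostly lower in KO, with KO below both WT libraries for 8 of the 13 genes, all of them tested and 0 called (edgeR, adjusted p of 0.05). The size rule was met by 3 of the 13 on the lower side, close to the 23.4% of all genes tested, and by 1 on the higher side, against 13% of all genes tested. Gart, a trifunctional enzyme of the route, had 30 counts in KO, against 110 and 124 in WT. Paics had 17 counts in KO, against 57 and 47, and Adss, which starts the branch from IMP to AMP, had 11, against 34 and 60. On the higher side Pfas, the FGAR amidotransferase, had 64 counts in KO, against 37 and 35. KO was below both WT libraries in 38.2% of all genes tested.

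Of 11 P2 receptor genes, which sense extracellular nucleotides, 5 were tested and 0 called. Of the 5, the size rule was met by 1 on the higher side (P2ry6) and 2 on the lower side (P2ry1 and P2ry14). Among all genes tested, 13% met it on the higher side and 23.4% on the lower side. P2rx1, an ATP-gated channel, had 16 counts in KO, against 22 and 37 in WT. P2ry1, an ADP receptor, had 0 counts in KO, against 18 and 5, and P2ry14 had 2, against 14 and 10. P2ry6, a UDP receptor, had 21 counts in KO, against 0 in both WT libraries. Its KO level was 18.2 times that of the WT pair set to 3 counts in all, leaving out the counting error of KO. It did not pass the test (edgeR quasi-likelihood, adjusted p 0.42). In the other 4 fits its adjusted p ranged from 0.43 to 0.84. P2ry1, P2ry14 and P2ry6 were named after their values were seen.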
